A study of Homo sapiens with 11 samples.

Results

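Compared here were 5 samples, of the 11 in the series: 2 of HEC50B cells that carry PPP2R1A R183W and were given 50 µM WM1119 for 4 days, and 3 of HEC50B cells with PPP2R1A returned to wild type (WT) and given vehicle. They were taken by the genotype and treatment in the sample labels. HEC50B is an endometrial cancer cell line whose parental form carries the substitution, and the WT line was made from it by CRISPR editing; the labels do not say how many edited clones it represents. Replicates are numbered in the labels but not described as separate cultures, so the p-values measure only how far these samples spread, and that spread may be technical. The 3 samples of R183W cells given vehicle were read beside the 5, because they show where each gene stood before the inhibitor. The 3 samples of WT cells given WM1119 entered the estimate of the spread, the filter on low counts and the scaling, but neither mean compared. The question was which genes of inhibited mutant cells stood at the level of untreated WT cells, which stood short of it and which stood past it. Genotype and treatment both differ between the 2 groups compared, and their parts cannot be told apart in that contrast by itself.

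PPP2R1A encodes the scaffold subunit of protein phosphatase PP2A, an enzyme that removes phosphate from serine and threonine in many proteins of growth signalling and the cell cycle. The scaffold holds the catalytic subunit and an exchangeable regulatory subunit that directs the enzyme to its substrates, and R183W is a recurrent substitution in serous and other high-grade endometrial cancers. KAT6A is a lysine acetyltransferase that marks histone H3 in a complex with a BRPF scaffold protein, and WM1119 competes with acetyl coenzyme A for its active site and that of its relative KAT6B.

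Library totals were 4545499 to 5261548 counts in untreated WT, 4576026 to 6065149 in untreated R183W and 3323979 to 4152250 in inhibited R183W cells. The keratins KRT8 and KRT18 and the Müllerian factor PAX8 were present in every group, at 380 and 480 CPM for PAX8 in untreated WT and inhibited R183W cells (CPM, counts relative to the library total scaled with TMM factors). CDH1 and KRT19 were under 1 CPM and SOX17 at 0 in all 3 groups. KRT7 was at 3.37, 5.83 and 2.80 CPM in untreated WT, untreated R183W and inhibited R183W cells. In the same order the 7 epithelial markers summed to 954 to 1217, 1665 to 1870 and 1641 to 1642 CPM. Of the 7 leukocyte markers only CD68 was above 1 CPM, at 7.88 in untreated WT, 6.04 in untreated R183W and 4.27 in inhibited R183W cells, and the 5 endothelial markers measured were at or near 0. Of 6 neural and glial markers 3 (MBP, SNAP25 and SYP) were above 1 CPM in each group. The list summed to 34.8 to 44.8 CPM in untreated WT, 19.1 to 26.6 in untreated R183W and 15.7 to 25.7 in inhibited R183W cells. Of the 8 fibroblast markers, 4 were above 1 CPM in untreated WT, 4 in untreated R183W and 2 in inhibited R183W cells. Their summed level was 716 to 870, 829 to 1050 and 653 to 655 CPM in the same order, most of it COL1A1 and PDGFRA. The part of these markers in the results was not tested. In bulk RNA, fewer cells of a kind and less RNA per cell cannot be told apart.

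The following 3 differences on the log2 scale describe each gene: the gap (untreated R183W less untreated WT), the shift (inhibited less untreated R183W) and the remainder (inhibited R183W less untreated WT), which is their sum. The 3 share samples, so the classes below are a description and no overlap was tested. Of 13980 genes tested, 2863 had a remainder past the threshold (20.5%, edgeR quasi-likelihood test, adjusted p under 0.05), 1509 higher (10.8%) and 1354 lower (9.69%) in inhibited R183W cells. Among them 804 were at least 2-fold higher and 803 at least 2-fold lower. The gap passed for 1817 genes (13%), 954 higher (6.82%) and 863 lower (6.17%), and the shift for 649 (4.64%), 278 higher (1.99%) and 371 lower (2.65%). The list counts below are to be read beside these shares over all genes tested. The median remainder over all genes was -0.01. The counts over all genes moved with single libraries. The remainder count was 1792 and 1738 without untreated WT replicate 2 or 3, and 4457 without replicate 3 of inhibited WT cells. That library stands apart from its group and enters the spread, the filter and the scaling, but neither mean compared. The count was lower still without either inhibited R183W library, which leaves a lone library in that group.

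Of the 1817 genes with a gap, 392 (21.6%) stood at the WT level after the inhibitor, meaning that the remainder was not past the threshold and its 95% interval lay inside a 2-fold difference. For 88 of these the shift itself passed the test, toward WT, and for 304 it did not, so most of this class moved by less than could be called. Another 333 (18.3%) stood short of WT, with a called remainder of the same sign as the gap but smaller. The shift was called toward WT in 21 of these and not called in 312. In 806 (44.4%), no closer to WT, the remainder had the sign of the gap and was at least as large. The shift was called away from WT in 77 of these and not called in 729. The directions of the shift in the short and no-closer classes follow from how those classes are defined. The definition of the class at WT likewise leaves a called shift little room to point away from WT. A further 13 genes crossed to the other side of WT with a called remainder, and 273 were unresolved because the interval was too wide. Outside the gap genes, 363 had a called remainder and a called shift, 165 above WT and 198 below. They are termed newly different below, although an uncalled gap does not show that a gene stood at WT before the inhibitor. The shift ran against the sign of the fitted gap in 178 of them and with it in 185. The class at WT held between 169 genes (without untreated WT replicate 2) and 735 (without inhibited WT replicate 3) when 1 library was left out, and 314 of the 392 kept their class in the latter fit.

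**Figure D1:**
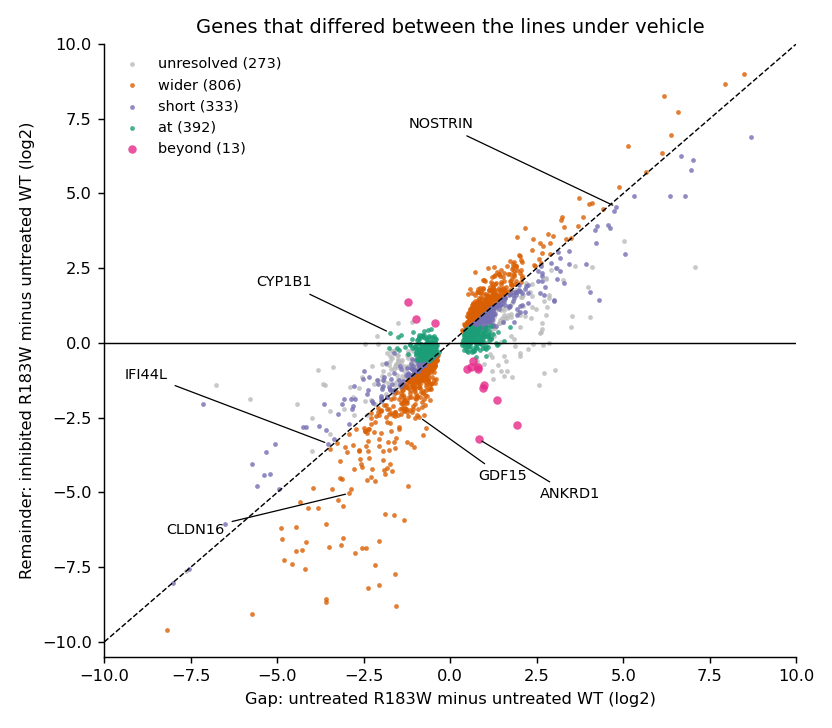
Remainder (y axis) against gap (x axis), both as fitted log2 differences, for the 1817 genes whose gap was called, coloured by position. Points on the solid line match untreated WT cells and points on the dashed line match untreated R183W cells; the 13 genes past WT lie at the upper left and lower right. Fitted values of genes without counts in a group depend on the prior count.

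Most of the DNA replication genes with a gap stood at the WT level after the inhibitor. Of the 43 tested, 15 had a gap and all 15 were above WT in untreated R183W cells; after WM1119, 11 of them stood at WT, TK1 short of it, UNG no closer, POLA2 past it and GINS1 unresolved. The list's median was 0.43 for the gap, -0.60 for the shift and 0.02 for the remainder, against -0.01, -0.00 and -0.01 over all genes tested. MCM3, a subunit of the replicative helicase, measured 189, 151 and 151 CPM in untreated WT cells, 295, 296 and 273 in untreated R183W cells and 158 and 165 in inhibited R183W cells. The inhibited samples lay inside the WT range, and the remainder was -0.02 (SE 0.18, edgeR adjusted p = 0.956). CDC6, which loads that helicase at origins, measured 23.9, 17.9 and 25.6 CPM in WT, 49.3, 53.9 and 42.6 in untreated R183W and 29.5 and 20.2 in inhibited R183W cells, with a remainder of 0.16 (SE 0.22, edgeR adjusted p = 0.649). Inhibited and WT values of CDC6 overlapped, and the untreated R183W values lay above both.

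The helicase factors MCM7 and MCM10 and the clamp loader subunits RFC2 and RFC3 had remainders of 0.21, -0.00, -0.18 and 0.29. Each kept its place at WT in all 19 other fits, as did MCM3 and CDC6. The number of replication genes at WT was 8 to 12 when any 1 library was left out. TK1, the salvage thymidine kinase, came down less: 60.9, 47.5 and 58.3 CPM in WT, 142, 117 and 112 in untreated R183W and 92.1 and 89.1 in inhibited R183W cells, a remainder of 0.71 (SE 0.17, edgeR adjusted p = 0.00979), with both inhibited samples above every WT sample. POLA2, a subunit of the DNA polymerase alpha-primase complex, measured 29.9, 27.3 and 33.5 CPM in WT and 47.5, 47.5 and 48.9 in untreated R183W cells. In inhibited R183W cells it measured 20.9 and 18.4 CPM, a remainder of -0.62 (SE 0.19, edgeR adjusted p = 0.0331). The TK1 call was lost without either inhibited R183W library, and that of POLA2 also without untreated R183W replicate 2 or 3 or WT replicate 3, and with no filter on low counts (edgeR adjusted p up to 0.0818 and 0.222 over the alternatives). Not every replication gene followed: MCM6, RPA3 and RRM2, whose gap was not called, were below WT in inhibited cells, with remainders of -1.29 for MCM6 and -0.76 for RRM2. Over the list 3 genes were higher and 4 lower than WT, 7 of 43 beside 20.5% over all genes tested. These counts were 0 and 0 without inhibited R183W replicate 1, 0 and 1 without its replicate 2, and 5 and 9 without inhibited WT replicate 3. MCM6 and RRM2 lost the call without either inhibited R183W library and RPA3 without replicate 1. MCM3, MCM7, MCM10, RFC2, TK1 and GINS1 were chosen after their values were seen.

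In homologous recombination and Fanconi repair, 4 of 26 genes had a gap, all above WT. Over all genes tested 13% had a gap, 6.82% above WT. BRCA1, BRCA2 and XRCC2 stood at WT after the inhibitor (7 genes did without inhibited WT replicate 3). BRCA2 measured 65.4, 52.6 and 61.9 CPM in WT, 101, 120 and 116 in untreated R183W and 72.2 and 74.3 in inhibited R183W cells. Its remainder was 0.29 (SE 0.18, edgeR adjusted p = 0.258), although both inhibited values exceeded the highest WT value. BRCA2 and XRCC2 kept that class in all 19 other fits and BRCA1 in 10. E2F1, which drives transcription of S phase genes, likewise stood at WT: 30.8, 25.2 and 27.8 CPM in WT, 66.3, 52.2 and 59.2 in untreated and 28.1 and 38.1 in inhibited R183W cells (remainder 0.24, SE 0.22, edgeR adjusted p = 0.48). Of 35 mitotic genes 4 had a gap, near the 13% over all genes tested, and all 4 were above WT. After the inhibitor 3 of these stood at WT and TOP2A, which untangles DNA, short of it. The single direction of the gap moved with the fit. Mitotic genes called below WT under vehicle numbered 4 without inhibited WT replicate 3 and 1 with DESeq2. Those above WT numbered 2 without untreated R183W replicate 1 or 2 or WT replicate 2 or 3. Over the list 1 was higher and 6 were lower than WT in inhibited cells, and the median remainder was -0.37; whether the mitotic and repair lists differ was not tested. CENPE, a kinetochore motor, measured 202, 210 and 224 CPM in WT, 151, 172 and 166 in untreated and 118 and 102 in inhibited R183W cells, a remainder of -0.95 (SE 0.16, edgeR adjusted p = 0.00142). The count of lower mitotic genes was 2 or 1 without inhibited R183W replicate 1 or 2, 3 without WT replicate 2 and 10 without inhibited WT replicate 3.

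**Figure D2:**
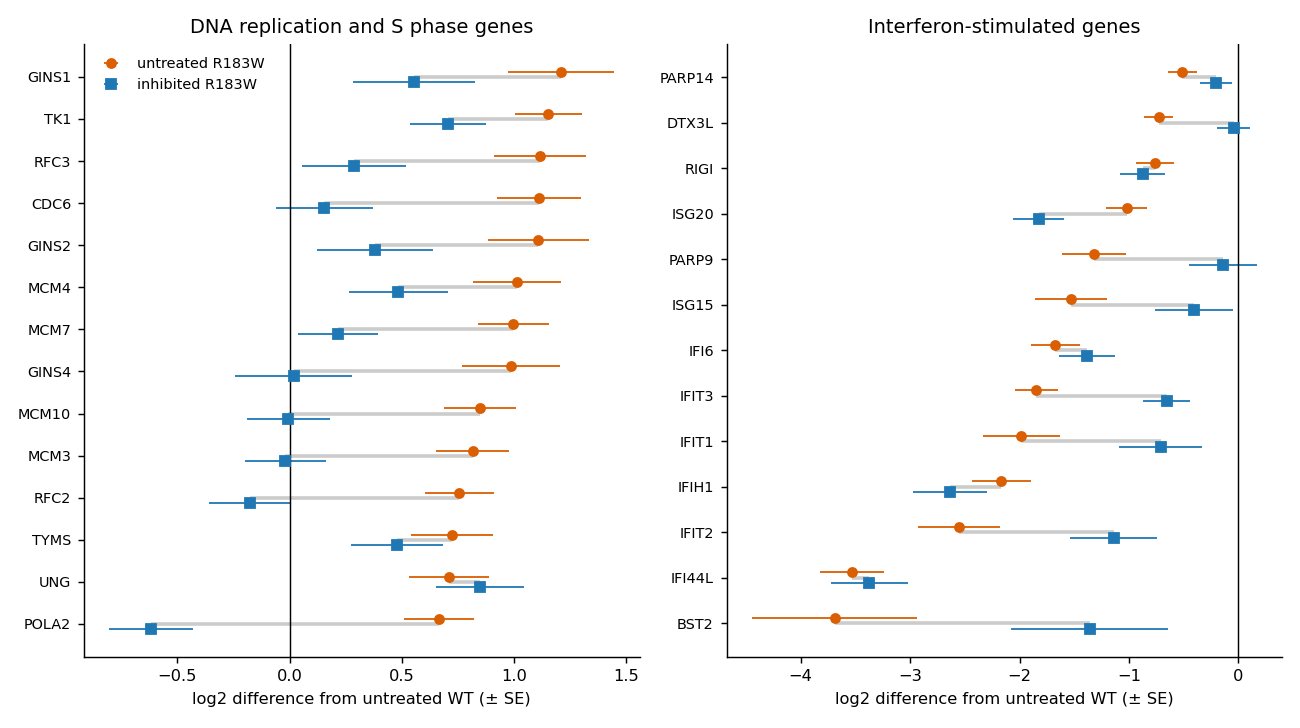
Difference from untreated WT cells (x axis, log2, ± SE of the fit) of the replication genes (left) and interferon-stimulated genes (right) with a called gap and more than 3 counts in each group, for the genes reported here; circles are untreated and squares inhibited R183W cells. On the left most squares lie near 0; on the right PARP9 and DTX3L approach 0 while IFI44L and IFIH1 do not.

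Among the 392 genes at WT, those with the widest gap included metabolic and regulatory genes. CYP1B1, a cytochrome P450 induced by the aryl hydrocarbon receptor, measured 123, 109 and 123 CPM in WT, 42.6, 32.1 and 30.4 in untreated R183W and 146 and 155 in inhibited R183W cells. Its shift was 2.10 (edgeR adjusted p = 8.07e-06) and its remainder 0.35 (SE 0.15, edgeR adjusted p = 0.12); the inhibited values lay above all 3 WT values. YPEL2 measured 37.7, 42.9 and 39.5 CPM in WT, 10.9, 10.3 and 14 in untreated and 32.2 and 38.7 in inhibited R183W cells (remainder -0.18, SE 0.22, edgeR adjusted p = 0.588). CYP2B6, a drug-metabolising cytochrome, went the other way, with 47.5, 57.7 and 55.7 CPM in WT, 158, 134 and 128 in untreated and 65.7 and 73.4 in inhibited R183W cells (remainder 0.37, SE 0.18, edgeR adjusted p = 0.147). All 3 kept this class in the 19 other fits. ELF3, an epithelial transcription factor, was at 73.6, 61 and 59.1 CPM in WT, 45.5, 37.9 and 36.7 in untreated and 65.5 and 60.7 in inhibited R183W cells, and its WT and inhibited values overlapped (remainder -0.03, SE 0.16, edgeR adjusted p = 0.912). FAM111A, RGS5, DEFB1, DEPDC4 and LRRC37B completed the widest gaps in this class and kept it in only 8 to 13 of the 19 other fits.

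A set of 13 genes stood on the far side of WT. ANKRD1, an ankyrin repeat protein encoded by a target gene of YAP and TEAD, had the largest remainder of the 13, and its promoter is printed with that of CCN2, another such target, because both genes were far under WT after the inhibitor. YAP and its relative TAZ are coactivators that act through TEAD proteins and are held back by the Hippo kinases. The windows are 300 bases around the gene start in RefSeq (GRCh38.p14, minus strand, ANKRD1 at chr10:90921038-90921337 and CCN2 at chr6:131951323-131951622), with GGAATG on either strand in capitals.
ANKRD1: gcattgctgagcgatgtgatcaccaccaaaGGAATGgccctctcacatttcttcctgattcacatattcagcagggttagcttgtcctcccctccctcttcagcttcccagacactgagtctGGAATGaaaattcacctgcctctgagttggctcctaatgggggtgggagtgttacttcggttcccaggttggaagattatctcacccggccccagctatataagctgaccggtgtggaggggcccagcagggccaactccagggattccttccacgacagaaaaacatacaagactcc
CCN2: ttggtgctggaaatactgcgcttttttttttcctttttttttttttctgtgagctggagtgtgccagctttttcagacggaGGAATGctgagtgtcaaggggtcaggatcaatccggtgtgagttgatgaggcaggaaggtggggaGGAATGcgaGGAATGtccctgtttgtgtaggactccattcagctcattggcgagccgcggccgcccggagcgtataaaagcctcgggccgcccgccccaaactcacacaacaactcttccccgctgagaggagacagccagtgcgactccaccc
The ANKRD1 window holds 2 such matches and that of CCN2 holds 3. Of 27305 promoters, 14% hold at least 1, and 7 of the 15 YAP/TEAD genes matched to a promoter do (46.7%); a match is a description of the sequence only.

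ANKRD1 measured 123, 107 and 112 CPM in untreated WT cells, 174, 222 and 209 in untreated R183W cells and 12.2 and 12.1 in inhibited R183W cells. Every untreated R183W value lay above WT and both inhibited values far below it, with a remainder of -3.22 (SE 0.18, edgeR adjusted p = 9.88e-08). SIGLEC15, a sialic acid-binding receptor, followed the same order at 36.4, 31.3 and 27.3, then 60.6, 66.3 and 57.6, then 12.2 and 11.8 CPM (remainder -1.39, SE 0.26, edgeR adjusted p = 0.00227). CAV1, the caveolar coat protein, measured 114, 117 and 120 CPM in WT, 169, 201 and 236 in untreated and 66.9 and 59.8 in inhibited R183W cells (remainder -0.88, SE 0.17, edgeR adjusted p = 0.00289). ADAMTS15, a secreted metalloproteinase of the ADAMTS family, crossed upward: 25.4, 15.4 and 13.2 CPM in WT, 8.74, 5.56 and 8.72 in untreated and 47.3 and 45 in inhibited R183W cells (remainder 1.36, SE 0.26, edgeR adjusted p = 0.00254). ANKRD1, SIGLEC15 and ADAMTS15 kept this class in all 19 other fits and CAV1 in 18, losing its call without inhibited R183W replicate 2 (edgeR adjusted p = 0.0512). The class also held GADD45A, LOXL4, POLA2, SLC6A13, AKR1B1, CTPS1, NEAT1, LINC00513 and LINC01111, of which the last 5 were chosen after their values were seen. Without inhibited R183W replicate 2, 6 of the 13 remained, and between 7 and 13 did without any other library.

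**Figure D3:**
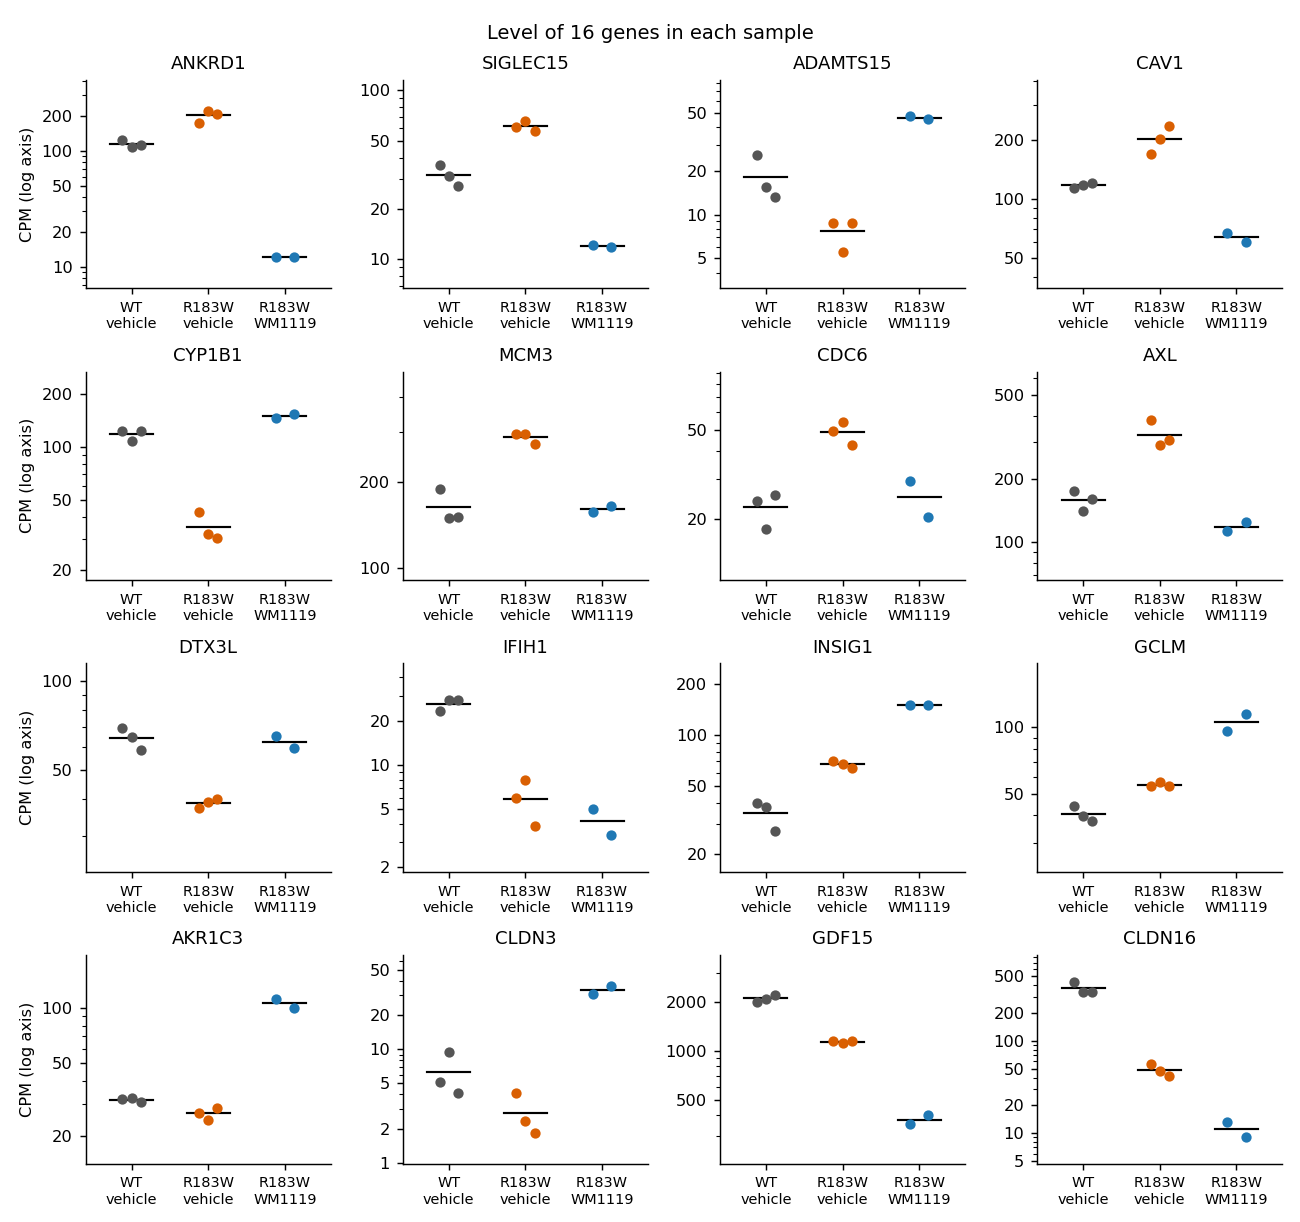
Level of 16 genes in each sample (CPM, log axis; each panel has its own range) for untreated WT, untreated R183W and inhibited R183W cells; points are samples and bars group means. ANKRD1, SIGLEC15 and CAV1 pass from above to below WT, MCM3 and CDC6 meet it, and INSIG1, GCLM and CLDN16 move farther from it.

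Of 23 YAP/TEAD genes tested, 10 were below untreated WT and 0 above, with a median remainder of -0.80, where the gap median was 0.18 and 3 genes were higher and 2 lower. AXL, a receptor tyrosine kinase, stood at WT by the class rule, at 175, 141 and 161 CPM in WT, 380, 289 and 305 in untreated and 113 and 125 in inhibited R183W cells; both inhibited values lay below WT without passing the test (remainder -0.42, SE 0.19, edgeR adjusted p = 0.138). CRIM1, a membrane protein that binds growth factors, had no called gap and measured 56, 56.2 and 68.9, then 59.4, 77.3 and 68.5, then 37.7 and 29.9 CPM (remainder -0.83, SE 0.18, edgeR adjusted p = 0.0059). CCN2, a secreted matrix protein, was at 10, 10.1 and 19.8 CPM in WT, 7.26, 7.92 and 9.12 in untreated and 2.16 and 0.302 in inhibited R183W cells (remainder -3.32, SE 0.67, edgeR adjusted p = 0.00387). Inhibited values of CRIM1 and CCN2 lay below those of the other groups, and both calls were lost without inhibited R183W replicate 2 (edgeR adjusted p = 0.0962 and 0.0575). The count of lower genes was 6 or 4 without inhibited R183W replicate 1 or 2. CRIM1 was chosen after its values were seen.

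Interferon-stimulated genes encode antiviral and antigen-processing proteins and are switched on by interferon signalling at a response element of repeated TTTC blocks. A pair of promoters is printed to set a gene that reached WT beside one that did not; capitals mark the core of that element, a pair of TTTC blocks 2 bases apart, on either strand, in RefSeq windows of 300 bases (GRCh38.p14, plus strand, DTX3L at chr3:122564088-122564387 and IFI44L at chr1:78620198-78620497).
DTX3L: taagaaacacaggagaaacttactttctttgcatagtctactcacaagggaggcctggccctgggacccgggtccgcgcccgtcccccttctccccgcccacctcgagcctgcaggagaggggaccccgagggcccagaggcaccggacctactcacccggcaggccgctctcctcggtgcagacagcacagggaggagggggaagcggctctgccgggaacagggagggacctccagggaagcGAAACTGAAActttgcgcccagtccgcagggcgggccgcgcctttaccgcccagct
IFI44L: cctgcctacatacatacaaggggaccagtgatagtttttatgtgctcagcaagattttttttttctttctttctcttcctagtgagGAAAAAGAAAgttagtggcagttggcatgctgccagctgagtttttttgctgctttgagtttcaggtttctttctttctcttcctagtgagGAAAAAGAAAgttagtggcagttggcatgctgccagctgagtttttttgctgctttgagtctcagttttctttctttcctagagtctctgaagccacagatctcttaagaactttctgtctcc
The element occurs in 3.65% of the 27305 promoters and in 15 of the 22 interferon-stimulated genes with a promoter in the table (68.2%). Both promoters hold it, the first 1 time and the second 2 times.

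Of 26 interferon-stimulated genes tested, 17 had a gap and all 17 were below WT in untreated R183W cells. After WM1119, 3 stood at WT (DTX3L, PARP9 and PARP14), 5 short of it, 4 no closer and 5 were unresolved; 10 were lower and 1 higher than WT. The median was -1.38 for the gap, 0.41 for the shift and -0.68 for the remainder.

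DTX3L, a ubiquitin ligase that works with PARP9, measured 69.6, 64.8 and 58.3 CPM in WT, 37.3, 39 and 39.9 in untreated and 65 and 59.5 in inhibited R183W cells (remainder -0.04, SE 0.15, edgeR adjusted p = 0.865), and kept this class in all 19 other fits. The inhibited values lay within the WT range. By contrast IFI44L measured 31, 24.8 and 27.3 CPM in WT, 1.98, 1.71 and 3.45 in untreated and 3.36 and 1.81 in inhibited R183W cells, a remainder of -3.37 (SE 0.35, edgeR adjusted p = 2.94e-05) with no overlap between WT and either R183W group. IFIH1, a cytosolic sensor of viral RNA, was at 23.4, 28 and 28 CPM in WT, 5.94, 7.92 and 3.85 in untreated and 5.04 and 3.32 in inhibited R183W cells (remainder -2.64, SE 0.34, edgeR adjusted p = 0.000172). IFI6, a survival factor, likewise remained low at 43.3, 34.3 and 33.7, then 14.5, 12.2 and 7.91, then 15.8 and 12.4 CPM (remainder -1.38, SE 0.26, edgeR adjusted p = 0.00244). STAT2 had no called gap and was the 1 gene higher than WT, at 54.2, 46.3 and 37.6, then 60.4, 50.9 and 47.9, then 96.9 and 90 CPM (remainder 1.02, SE 0.22, edgeR adjusted p = 0.00497), a call lost without inhibited R183W replicate 1 (edgeR adjusted p = 0.0541). The count of lower genes was 4 without inhibited R183W replicate 1, where 5 genes stood at WT, and 6 without WT replicate 2 or 3. STAT2 and IFI6 were chosen after their values were seen.

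Of 24 genes of cholesterol synthesis and uptake tested, 14 were higher in inhibited R183W than in untreated WT cells and 0 lower. Under vehicle 8 were already higher and 2 lower, and the shift was called in 3, all higher. The list had a median remainder of 0.96 against a gap median of 0.57 and a shift median of 0.29. INSIG1, which holds the sterol sensor SCAP in the endoplasmic reticulum, measured 40.2, 37.7 and 27.5 CPM in WT, 70.3, 68.1 and 64.1 in untreated and 151 and 150 in inhibited R183W cells. The 3 groups did not overlap, and the remainder was 2.10 (SE 0.16, edgeR adjusted p = 1.87e-06). FDPS, which makes farnesyl diphosphate, was above WT with and without the inhibitor: 73.4, 77.4 and 74, then 171, 145 and 169, then 155 and 171 CPM (remainder 1.12, SE 0.15, edgeR adjusted p = 0.000215). HMGCS1, an early enzyme of the pathway, had no called gap and was at 25.7, 23.8 and 28, then 24.3, 26.8 and 23.9, then 60.7 and 50.1 CPM (remainder 1.10, SE 0.22, edgeR adjusted p = 0.00383); its remainder call was lost without inhibited R183W replicate 1 (edgeR adjusted p = 0.0644). TM7SF2 and CYP51A1, which act late in the pathway, stood at WT, in 18 and 9 of the 19 other fits, and PMVK, which acts early, short of it. The count of higher genes was 7 or 8 without inhibited R183W replicate 1 or 2 and 9 without WT replicate 2. FDPS, HMGCS1 and PMVK were chosen after their values were seen.

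Of 32 genes of the NRF2 antioxidant pathway tested, 14 were higher and 2 lower than WT in inhibited cells, with a median remainder of 0.45, where under vehicle 2 were higher and 2 lower. NRF2 is released from KEAP1 under oxidative or electrophilic stress and binds the antioxidant response element. The promoter of GCLM, the modifier subunit of the enzyme that starts glutathione synthesis, is printed because that gene is a textbook target (RefSeq, GRCh38.p14, minus strand, chr1:93909381-93909680, TGACNNNGC on either strand in capitals).
GCLM: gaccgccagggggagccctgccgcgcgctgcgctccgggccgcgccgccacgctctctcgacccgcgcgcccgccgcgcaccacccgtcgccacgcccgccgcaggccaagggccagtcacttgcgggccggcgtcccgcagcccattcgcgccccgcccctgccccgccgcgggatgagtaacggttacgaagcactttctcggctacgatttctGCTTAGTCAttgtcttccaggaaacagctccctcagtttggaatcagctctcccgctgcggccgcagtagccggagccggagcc
That core occurs in 13.6% of the 27305 promoters and in 6 of 23 list members with a promoter in the table (26.1%).

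GCLM measured 44.2, 39.8 and 37.6 CPM in WT, 54.1, 56.7 and 54.3 in untreated and 96.7 and 115 in inhibited R183W cells (remainder 1.38, SE 0.20, edgeR adjusted p = 0.000478). AKR1C3, an aldo-keto reductase, was at 31.7, 32.4 and 30.7 CPM in WT, 26.7, 24.4 and 28.6 in untreated and 112 and 101 in inhibited R183W cells, with a remainder of 1.75 (SE 0.15, edgeR adjusted p = 5.15e-06). Inhibited values of both lay above all other values. TXNRD1, the thioredoxin reductase, stood below WT throughout, at 251, 206 and 212, then 84.3, 85 and 73, then 127 and 134 CPM (remainder -0.77, SE 0.16, edgeR adjusted p = 0.00539; lost without inhibited R183W replicate 1, edgeR adjusted p = 0.0606). The cystine transporter SLC7A11 was lower too, with a remainder of -0.96. Reads of AKR1C3 can be shared with close paralogs. The count of higher genes was 7 without either inhibited R183W replicate and 8 or 9 without WT replicate 2 or 3. TXNRD1 and SLC7A11 were chosen after their values were seen.

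Plasminogen activators and matrix metalloproteinases cleave matrix and activate growth factors. Of 16 such genes and their inhibitors tested, 9 were below WT and 1 above, with a median remainder of -1.26 against a gap median of -0.25. PLAT, tissue plasminogen activator, measured 17.8, 17.5 and 21.8 CPM in WT, 19.5, 27.2 and 26 in untreated and 6 and 5.74 in inhibited R183W cells (remainder -1.69, SE 0.25, edgeR adjusted p = 0.000484). TIMP2, an inhibitor of metalloproteinases, was lower with them, at 423, 403 and 391, then 285, 266 and 232, then 169 and 170 CPM (remainder -1.26, SE 0.14, edgeR adjusted p = 5.52e-05). MMP1, a collagenase, had 90 counts over the WT samples and 0 in both inhibited samples. That is at least 14.9-fold lower when 3 counts over the group are taken as the floor. Its shift was called and its gap was not. MMP2, a gelatinase, was the 1 gene above WT: 15.8, 13.5 and 8.09, then 47.5, 36.2 and 41.2, then 53.8 and 43.5 CPM (remainder 1.97, SE 0.30, edgeR adjusted p = 0.000545). The count of lower genes was 5 without inhibited R183W replicate 2. PLAT and TIMP2 were chosen after their values were seen.

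Of 7 secreted cytokines and chemokines tested 1 was higher and 2 lower than WT. Of 24 genes of TGF-beta, activin and BMP signalling 4 were higher and 6 lower, and of 10 of the EGF receptor family and its ligands 0 were higher and 3 lower. Over all genes tested 10.8% were higher and 9.69% lower. Without inhibited WT replicate 3, 4 cytokines were lower; without inhibited R183W replicate 2, 0 were higher; and without its replicate 1, 2 TGF-beta genes were higher. INHBA, which encodes the activin A subunit, measured 185, 213 and 289 CPM in WT, 0.99, 0.428 and 0.811 in untreated and 0.48 and 0 in inhibited R183W cells. With 2 counts in the inhibited samples the ratio of WT to inhibited cells was 865 (counting interval 239 to 7143), and both R183W groups lay far below WT. GDF15, a stress-induced cytokine, fell in steps from WT at 2007, 2084 and 2210 CPM to untreated R183W cells at 1141, 1111 and 1147 and inhibited cells at 353 and 399 (remainder -2.48, SE 0.12, edgeR adjusted p = 6.67e-08). AREG, an EGF receptor ligand, was at 53.8, 81.6 and 94.7, then 7.59, 9.42 and 9.94, then 0.24 and 1.51 CPM (remainder -6.52, SE 0.49, edgeR adjusted p = 1.32e-06). IL11, an interleukin of the IL6 family, had no called gap and measured 9.37, 12.8 and 14.3, then 18.8, 21.6 and 26.6, then 1.44 and 0.906 CPM (remainder -3.32, SE 0.50, edgeR adjusted p = 0.00057). None of these 4 calls was lost in any alternative.

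Of 17 AP-1 and immediate early genes tested 7 were below WT and 1 above (median remainder -0.72), and of 20 ERK output genes 6 were below and 1 above (median -0.33). DUSP5, an ERK phosphatase, measured 342, 351 and 319 CPM in WT, 194, 190 and 193 in untreated and 78.2 and 75.5 in inhibited R183W cells (remainder -2.13, SE 0.13, edgeR adjusted p = 2.03e-07). FOSL1, an AP-1 subunit stabilised by ERK and held in both lists, was at 66, 76.2 and 81.7, then 99, 104 and 95.5, then 25.7 and 27.8 CPM (remainder -1.48, SE 0.17, edgeR adjusted p = 8.26e-05). The groups of each gene did not overlap, and DUSP5 had a called gap and shift while FOSL1 had a called shift only. The count of lower immediate early genes was 4 without either inhibited R183W replicate.

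Of 27 epithelial junction genes tested, 10 had a gap below WT and 1 above; after the inhibitor 3 were higher and 7 lower than WT, with a median remainder of -0.41. EPCAM, ELF3, TJP3 and SPINT2 stood at WT by the class rule, and EPCAM, TJP3 and SPINT2 did so in 15, 11 and 10 of the 19 other fits. EPCAM averaged 59.7 CPM in WT, 38.4 in untreated and 80.8 in inhibited R183W cells, so its inhibited mean lay above WT without a called remainder. CLDN16, a claudin of paracellular ion channels, moved farther down: 434, 334 and 339 CPM in WT, 56.8, 46.9 and 41.6 in untreated and 13.2 and 9.06 in inhibited R183W cells (remainder -5.03, SE 0.26, edgeR adjusted p = 6.67e-08). CLDN1, another claudin, had a called gap but no called shift, at 189, 238 and 256, then 111, 138 and 132, then 90 and 103 CPM (remainder -1.24, SE 0.17, edgeR adjusted p = 0.00026). CLDN3 went up instead, with 5.13, 9.53 and 4.14 CPM in WT, 4.12, 2.35 and 1.82 in untreated and 30.5 and 36.2 in inhibited R183W cells (remainder 2.40, SE 0.32, edgeR adjusted p = 0.000232). KRT15, a basal keratin, had 189 counts over WT and 0 over inhibited samples, at least 31.3-fold lower. It was already called below WT in untreated R183W cells. The count of higher junction genes was 1 without either inhibited R183W replicate. CLDN1 and EPCAM were chosen after their values were seen.

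Several matrix and signalling genes stood far from WT with and without the inhibitor. LAMA4, a laminin chain, measured 117, 120 and 121 CPM in WT, 14.7, 14.8 and 20.1 in untreated and 21.8 and 29.6 in inhibited R183W cells; it stood short of WT by -2.22 (SE 0.19, edgeR adjusted p = 4.12e-06). JAG1, a Notch ligand, was at 203, 214 and 242, then 39.9, 43 and 42.4, then 69.8 and 63.1 CPM, a small called shift of 0.67 (edgeR adjusted p = 0.0232) and a remainder of -1.72 (SE 0.16, edgeR adjusted p = 9.32e-06). PDGFRB, a growth factor receptor on the fibroblast marker list and chosen after its values were seen, was at 29.2, 52.2 and 34.1, then 3.46, 7.7 and 6.29, then 0.24 and 0.302 CPM. With 2 counts in the inhibited samples its ratio of WT to inhibited cells was 146 (counting interval 40.1 to 1206). Nostrin, a modulator of nitric oxide synthase traffic encoded by NOSTRIN, went the other way at 21.6, 15.2 and 7.72, then 397, 387 and 441, then 342 and 351 CPM (remainder 4.55, SE 0.27, edgeR adjusted p = 1.88e-07). SFRP1, a secreted WNT antagonist, rose in both steps: 3.12, 5.34 and 3.58, then 29.5, 32.1 and 24.1, then 48.2 and 53.2 CPM (remainder 3.64, SE 0.25, edgeR adjusted p = 3.86e-07). Over all genes tested 10.8% were higher than WT in inhibited cells and 9.69% lower. Of the 31 matrix genes 4 were higher and 9 lower, and of 13 integrin subunits 1 was higher and 5 lower; the lower counts became 5 for matrix genes without inhibited R183W replicate 2, 15 without inhibited WT replicate 3, and 2, 3 and 8 for integrins without inhibited R183W replicate 1, replicate 2 and inhibited WT replicate 3.

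Of 36 genes of ATF4 and amino acid supply 11 were lower and 3 higher than WT (median remainder -0.33). ASNS, asparagine synthetase, chosen after its values were seen, measured 821, 798 and 770 CPM in WT, 945, 934 and 935 in untreated and 435 and 451 in inhibited R183W cells (remainder -0.85, SE 0.12, edgeR adjusted p = 0.000381), while PHGDH, the first enzyme of serine synthesis, stood at WT with a remainder of 0.19. That count was 3 or 4 without inhibited R183W replicate 1 or 2, 5 without WT replicate 2 or 3 and 18 without inhibited WT replicate 3. In hypoxia and glycolysis 6 of 34 were higher and 5 lower (3 and 3 without either inhibited R183W replicate, 3 lower without WT replicate 2 or 3, and 10 lower without inhibited WT replicate 3). The shares over all genes tested were 10.8% higher and 9.69% lower. CA12, a carbonic anhydrase, measured 368, 336 and 319 CPM in WT, 521, 490 and 498 in untreated and 1260 and 1132 in inhibited R183W cells (remainder 1.81, SE 0.12, edgeR adjusted p = 3.21e-07). NDRG1, a stress-induced gene, moved oppositely at 130, 149 and 168, then 134, 140 and 145, then 33.4 and 33.8 CPM (remainder -2.15, SE 0.29, edgeR adjusted p = 0.000224).

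PPP2R1A itself measured 25, 24.6 and 20.1 CPM in WT, 36.5, 31 and 35.3 in untreated and 33.1 and 26.9 in inhibited R183W cells, a remainder of 0.37 (SE 0.19, edgeR adjusted p = 0.189); counts per gene do not show the edited codon. The inhibited values lay above all 3 WT values. It counted as standing at WT in 7 of the 19 other fits. KAT6A, the drug target, was at 180, 146 and 123, then 200, 159 and 152, then 184 and 174 CPM, and its remainder of 0.26 (SE 0.21, edgeR adjusted p = 0.395) did not pass. Of the 9 genes of the KAT6A/KAT6B complex 0 were called in the remainder by edgeR, 0 had an unadjusted p under 0.05 and DESeq2 called 0; the median remainder was 0.09. Among 26 PP2A subunits and regulators 3 were higher and 3 lower than WT, near the shares over all genes tested (10.8% and 9.69%). Without inhibited R183W replicate 1, 0 were higher, and without its replicate 2, 1 was higher and 1 lower; 1 was higher without WT replicate 2 or 3, and 5 were lower without inhibited WT replicate 3. PPP2R2C, a regulatory subunit, measured 10.7, 16.8 and 12.2 CPM in WT, 1.65, 0.428 and 1.01 in untreated and 1.68 and 1.81 in inhibited R183W cells (remainder -2.91, SE 0.50, edgeR adjusted p = 0.00135). PPME1, the PP2A methylesterase, stood at WT with 89.7, 72.4 and 72.4, then 130, 160 and 137, then 86.6 and 91.5 CPM.

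**Figure D4:**
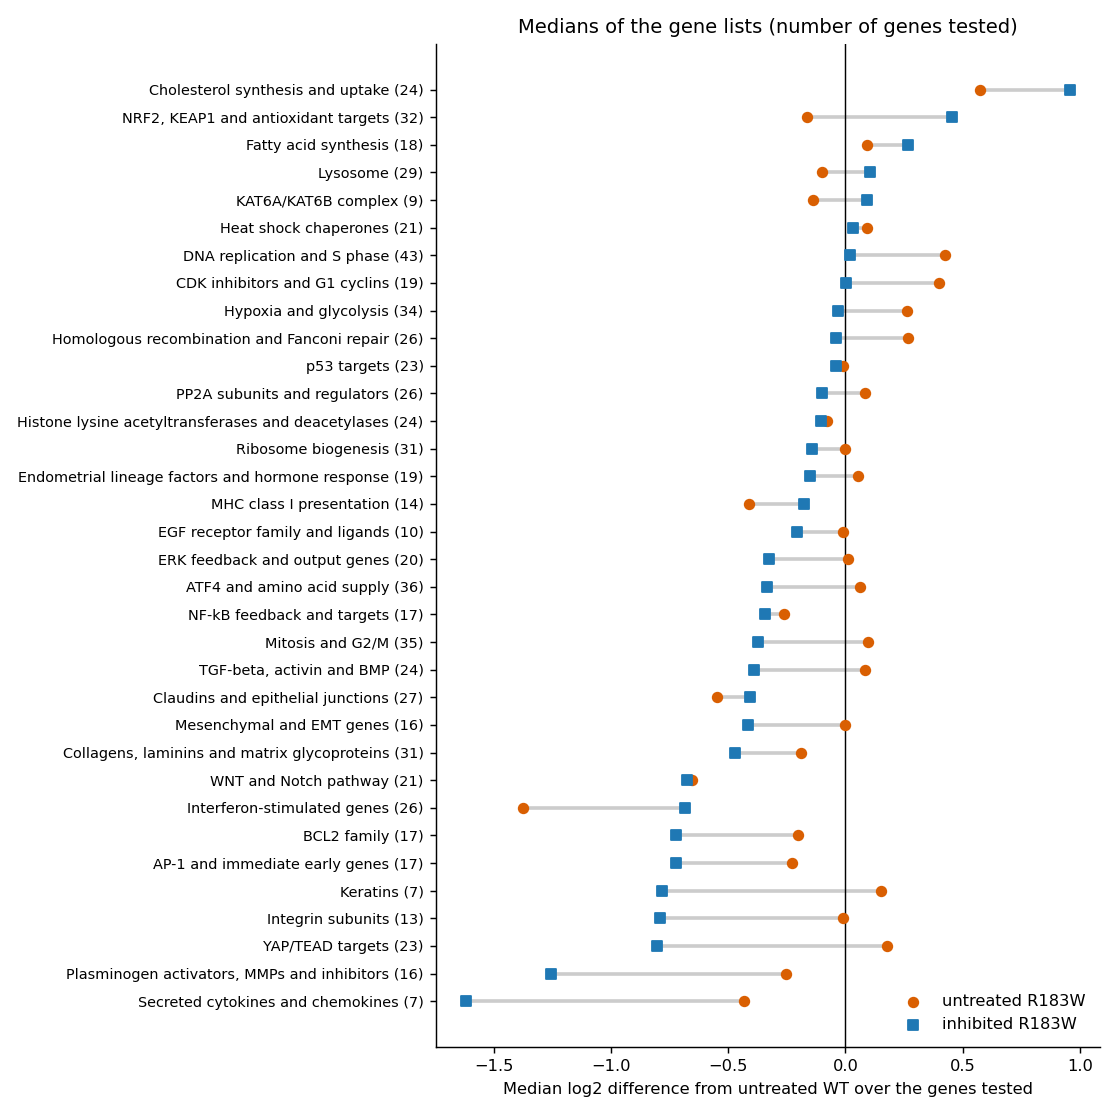
Median log2 difference from untreated WT cells (x axis) over the genes tested of each list with at least 7 of them (number in brackets), for untreated (circles) and inhibited R183W cells (squares). Replication genes move from 0.43 to 0.02 and YAP/TEAD genes from 0.18 to -0.80, while cholesterol genes move from 0.57 to 0.96; the medians are descriptions and carry no test.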

How the data were processed

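RNA-seq gene expression was measured in HEC50B cells. Values are expected counts, which the authors deposited as 1 table for all samples and which can hold fractions of a read. STAR, RSEM and hg19 appear in the submitters' processing notes, without versions or roles. The labels name both polyA RNA and a ScriptSeq Complete Gold kit. Estimated counts share out reads that match several genes, so close paralogs and overlapping genes are uncertain. Counts were rounded, scaled with TMM factors and filtered by filterByExpr, which kept 13980 of 57736 genes. Differences were tested with edgeR 4.0.16 (two-sided quasi-likelihood test, Benjamini-Hochberg over all genes tested) in R 4.3.3, in 1 fit of all 11 samples with 4 group means; the biological coefficient of variation was 19.6%. With 2 samples against 3 an exact permutation test cannot go below 0.1, so single genes take their p from this fit. Groups followed the labels.

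Named genes were PPP2R1A and KAT6A, the largest remainders in each direction without overlap of the samples, the widest gaps in each class, and the list members with the largest called remainders or at WT; genes outside the rule are marked as chosen after their values were seen. Members and lists were chosen with earlier results of these data known. A floor of 3 counts over a group was used for genes without counts; such floors and intervals reflect only counting error. Setting such genes at their bound moved no list median printed here. The analysis script was tested on simulated data. Alternatives used other scalings, filters, DESeq2 1.42.0 and limma 3.58.1 (voom), a replicate block, other margins and thresholds, other sample sets and each replicate left out. Promoters came from RefSeq tables by symbol. CCL5, ACACA, BOP1 and PECAM1 were not analysed here. Some genes that count in the lists are not reported here by name.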

Additional observations from a re-analysis of the deposited data

How the results depend on the processing

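Of the 189 named genes with a called remainder, 0 changed sign in the refits in which they were tested. Many lost the call, however. Without untreated WT replicate 2 or 3, 153 and 151 of the calls were kept, and fewer were kept without either inhibited R183W library. The order of the totals did change: 1509 higher and 1354 lower became 1720 and 1825 with no filter, 1425 and 1445 with upper quartile factors, and 2212 and 2238 without the inhibited WT group, where hypoxia genes became 7 higher and 10 lower. The numbers of genes called higher and lower ranged from 534 to 2173 and from 499 to 2284 when 1 library was left out. The classes ranged over 169 to 735 (at WT), 6 to 43 (past WT), 50 to 822 (newly different), 105 to 578 (short), 115 to 606 (unresolved) and 418 to 1484 (no closer). Low extremes came mostly without an inhibited R183W library and high ones mostly without inhibited WT replicate 3. Where 1 library of the inhibited R183W group was left out, the lone library was assumed to vary like the other groups. Without the inhibited WT group the classes held 720 at WT, 40 past WT, 818 newly different, 577 short and 1492 no closer. A margin of 1.5-fold in place of 2-fold left 141 genes at WT and 524 unresolved. At an adjusted p under 0.1 there were 36 genes past WT, 589 newly different and 514 short. The genes past WT numbered 24 with DESeq2, 20 with limma-voom and 20 with no filter, which also gave 590 newly different.

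Whether the replicate numbers pair the samples could not be settled. In the groups compared, deviations of same-numbered samples correlated at -0.083 and -0.016 across genes. The inhibited R183W group has only 2 libraries, whose deviations mirror each other. Over all groups such correlations ran from -0.391 to 0.137. With a replicate block 851 genes were called lower, and the classes held 233 at WT, 7 past WT, 142 newly different, 188 short and 512 no closer; of the 189 named calls 152 were kept, and that of POLA2 was not. A library of 3323979 counts puts 3 counts at 0.906 CPM, so differences of a gene near that level in both groups could not be resolved.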

Other observations

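Lysosomal genes, which encode hydrolases and membrane proteins of that organelle, were called higher than untreated WT in 8 of 29 and lower in 0, with a median remainder of 0.11 against -0.01 over all genes tested. HEXA, a hexosaminidase subunit, measured 35.5, 37.7 and 31 CPM in WT, 30.4, 32.5 and 31.8 in untreated and 60.2 and 58.6 in inhibited R183W cells (remainder 0.77, SE 0.17, edgeR adjusted p = 0.00574). Its inhibited values lay above the others, and the call was lost without either inhibited R183W replicate (edgeR adjusted p up to 0.0608). The count of higher lysosomal genes was 1 without either of those replicates.

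In the BCL2 family, which regulates apoptosis at the mitochondrion, 6 of 17 genes tested were lower and 1 higher than untreated WT in inhibited cells. The lower genes were BIK, BMF, HRK, BCL2L11, PMAIP1 and BCL2L13, the first 5 of which encode BH3-only proteins, and the higher gene was BAD, another BH3-only member; those not given below with values were named to complete this count, after their values were seen. The count of lower genes was 3 without inhibited R183W replicate 2, and 0 were higher without either inhibited R183W replicate or WT replicate 3. HRK, a BH3-only protein, was at 29.7, 36.4 and 29.2 CPM in WT, 9.4, 9.2 and 8.31 in untreated and 9.84 and 8.15 in inhibited R183W cells (remainder -1.81, SE 0.23, edgeR adjusted p = 0.000181). BIK, another, had 88 counts over the WT, 27 over the untreated R183W and 0 over the inhibited samples, at least 14.6-fold lower than WT. Neither its gap nor its shift was called. H2BC12, a replication-dependent histone H2B gene, had a called remainder and shift but no called gap. It was at 14.7, 14.5 and 15.8, then 16, 14.6 and 15.2, then 58.6 and 56.2 CPM (remainder 1.93, SE 0.24, edgeR adjusted p = 0.000123).

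Of 19 endometrial lineage and hormone response genes tested 6 were higher and 1 lower than untreated WT. The lower count was 2 without inhibited R183W replicate 1 or inhibited WT replicate 1 and 3 without inhibited WT replicate 3. The lower gene was PAEP, the secretory endometrial protein glycodelin, which had 121 counts over WT and 0 over inhibited samples, at least 20.1-fold lower. PAEP was already called below WT in untreated R183W cells. WFDC2, a secreted marker of Müllerian carcinoma, was higher at 0.446, 1.52 and 0.188, then 3.96, 0.856 and 2.03, then 16.8 and 10.3 CPM (remainder 4.17, SE 0.74, edgeR adjusted p = 0.00165). FOXA2, a gland transcription factor, stood short of WT from above at 41.1, 40.2 and 39.9, then 127, 145 and 158, then 125 and 121 CPM (remainder 1.61, SE 0.16, edgeR adjusted p = 1.78e-05).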
